A study of Homo sapiens with 27 samples.

Results

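The 34 genes described here are ATF4, the transcription factor at the centre of the integrated stress response, with its best known targets, and the chaperones and degradation factors of the endoplasmic reticulum (ER) that the unfolded protein response controls. They were taken by symbol from 3 tables of RNA sequencing counts, which together list 27546 gene symbols, and all 34 were listed and passed the filter on low counts in every table. Bulk RNA was sequenced in 27 libraries of the human prostate cancer lines 22Rv1, DU145 and PC3, 3 for each of 9 groups. In every line the control group, labelled WT, carried control gRNA #1. The knockout groups, labelled RIPK2 knockout, carried a guide RNA against RIPK2, a kinase that relays signals from the bacterial sensors NOD1 and NOD2. These were RIPK2 gRNA #1 and #10 in 22Rv1, and RIPK2 gRNA #2 and #10 in DU145 and in PC3. The labels do not say whether a group is 1 clone or a mixed population, nor whether its libraries came from separate cultures, so p-values measure the spread between these libraries, which may be technical.

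When misfolded protein builds up in the ER, the sensor PERK phosphorylates the translation factor eIF2alpha, as the kinases GCN2, PKR and HRI do under amino acid shortage, viral RNA or lack of haem. General protein synthesis falls while translation of the ATF4 message rises, and ATF4 then drives genes of amino acid synthesis and uptake and of stress-induced cell death. The other ER sensors work beside it: IRE1 splices the XBP1 message and ATF6 is cut free in the Golgi, and both raise chaperones and degradation factors. Prostate epithelium secretes heavily, and both arms are studied in prostate cancer. Here the 21 members around ATF4 are called the ATF4 arm, and XBP1 with the 12 chaperones and degradation factors the ER arm.

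Short DNA elements through which these factors act were looked for in the members' promoters. RefSeq windows on GRCh38.p14, from 250 bases before to 50 bases after a gene start, were at hand for 30 of the 34 members, in 44 windows; ALDH1L2, NUPR1, PSPH and SHMT2 had none. In these windows, on both strands, 4 spelled motifs were searched. The site for ATF4 with a C/EBP partner, TGATGNAA, occurred in ASNS, CHAC1, HERPUD1 and SLC3A2, that is in 9.09% of the members' windows and in 3.62% of all 35116 windows. The ER stress element bound by ATF6 with NF-Y, which is CCAAT, any 9 bases and CCACG, occurred in CALR, CRELD2, HSP90B1, HSPA5 and XBP1, that is in 11.4% of the members' windows and in 0.0769% of all. Its variant, ATTGG and CCACG with any 1 base between, occurred in HERPUD1, HYOU1 and SDF2L1, in 6.82% against 0.0541% of windows, and the cyclic AMP response element TGACGTCA in PPP1R15A alone, in 2.27% against 1.85%. A match is a string of letters, not a shown binding site. The sequences below are those stretches, 5′ to 3′ along the gene's strand, with the spelled letters of the motif in capitals. They are shown because the ER stress elements lay in genes of the ER arm and the ATF4 sites in genes of the ATF4 arm, except HERPUD1, an ER gene that held one of each.

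ASNS, chr7:97872458-97872487, minus strand, with the ATF4 site: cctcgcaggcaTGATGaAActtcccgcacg

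CHAC1, chr15:40953251-40953280, plus strand, with the ATF4 site on the other strand: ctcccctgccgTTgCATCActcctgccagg

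SLC3A2, chr11:62881719-62881748, plus strand, with the ATF4 site on the other strand: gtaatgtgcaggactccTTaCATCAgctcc

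HERPUD1, chr16:56931892-56932047, plus strand, with the ATF4 site on the other strand and the ER stress element variant: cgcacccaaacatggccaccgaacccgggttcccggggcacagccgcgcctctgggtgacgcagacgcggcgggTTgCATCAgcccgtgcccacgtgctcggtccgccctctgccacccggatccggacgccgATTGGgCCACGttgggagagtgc

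HSPA5, chr9:125241344-125241593, minus strand, with the ER stress element: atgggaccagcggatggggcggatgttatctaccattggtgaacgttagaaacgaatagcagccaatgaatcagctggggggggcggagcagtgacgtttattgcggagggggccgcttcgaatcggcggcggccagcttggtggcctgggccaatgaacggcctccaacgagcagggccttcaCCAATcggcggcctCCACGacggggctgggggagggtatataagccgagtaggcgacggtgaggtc

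XBP1, chr22:28800598-28800819, minus strand, with the ER stress element: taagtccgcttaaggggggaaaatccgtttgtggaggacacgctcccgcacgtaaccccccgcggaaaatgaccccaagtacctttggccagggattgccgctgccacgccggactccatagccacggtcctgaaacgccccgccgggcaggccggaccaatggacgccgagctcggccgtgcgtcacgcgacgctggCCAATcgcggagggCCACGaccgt

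HSP90B1, chr12:103930210-103930239 and chr12:103930315-103930344, plus strand, with an ER stress element in each direction: ccctgaCCAATcggaaggagCCACGcttcg and tgggtgCGTGGtgcggcgcgATTGGtgggt

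The libraries held 17958558 to 20650819 counts. RIPK2 was read first, as a check of the labels, in CPM, counts relative to a library size scaled for composition within the line. In 22Rv1 it stood at 15.8, 18.2 and 16.1 CPM in the control libraries, at 9.42, 8.32 and 8.33 with RIPK2 gRNA #1 and at 5.58, 5.37 and 5.20 with gRNA #10. In DU145 it fell from 42.4 ± 2.67 (SD, n = 3) to 11.8 ± 1.77 CPM with gRNA #2, whereas with gRNA #10 it was 34.8 ± 1.51 CPM, 81.9% of the control, and did not pass the test (adjusted p = 0.0614). In PC3 it fell to 34.2% of the control with gRNA #2 and to 45.1% with gRNA #10. A guide can disrupt a protein without lowering its message, so the DU145 libraries labelled gRNA #10 are not checked by RNA. In 2 libraries the values lay away from those of the same group. In 22Rv1 gRNA #1 replicate 3, 16.65% of counts came from mitochondrial genes against 2.10% and 1.92% in its replicates, and its lowest correlation with a replicate was 0.971. In DU145 gRNA #2 replicate 3 the share was 2.89% against 1.75% and 2.12%, and the correlation 0.975. The mitochondrial share also moved with the groups. It was 0.515% to 1.28% in 22Rv1 controls and 1.81% to 2.06% with gRNA #10, 1.26% to 1.32% in DU145 controls and 2.46% to 2.77% with gRNA #10. In PC3 it was 4.44% to 4.69% in controls, 4.35% to 4.59% with gRNA #2 and 2.90% to 3.20% with gRNA #10. Its part in the results was not tested. Epithelial markers EPCAM, KRT8, KRT18 and CDH1 were present in all groups. The 10 markers of leukocytes, endothelium and fibroblasts summed to at most 11 CPM in any library.

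In the control cells the arms were set at different levels in the 3 lines. A gene is compared here only with itself across lines, in CPM, as a description without a test; a scaling across all lines would move the members by -3.48%, -2.70% and 8.20% at the median in 22Rv1, DU145 and PC3. The ATF4 message stood at 526, 489 and 507 CPM in 22Rv1 and at 545, 513 and 547 in DU145, which overlap, and at 208, 187 and 196 in PC3, well below both. ASNS, asparagine synthetase, followed that order, with 196 and 209 CPM on average in 22Rv1 and DU145 against 57.7 in PC3. CBS, the entry enzyme of transsulphuration, and MTHFD2, of mitochondrial folate metabolism, were also lowest in PC3. DDIT3, which encodes the death-associated factor CHOP, had the reverse order, with 36.5 CPM in PC3, 29.7 in 22Rv1 and 12.4 in DU145. NUPR1, a small stress-induced nuclear protein, was 21.8-fold higher in 22Rv1 than in DU145. PHGDH, the first enzyme of serine synthesis, was 13.2-fold higher in 22Rv1 than in PC3. Among ER genes, HSPA5 (the chaperone BiP), HSP90B1 (GRP94), CALR (calreticulin), PDIA4, CRELD2 and MANF were each highest in 22Rv1, by 1.44-fold to 4.94-fold over the lowest line, while SEL1L and EDEM1 of ER-associated degradation were highest in PC3. Of the 34 members, 14 were highest in 22Rv1, 13 in DU145 and 7 in PC3. In bulk RNA, fewer expressing cells and less RNA per cell cannot be told apart.

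With RIPK2 guides, most members changed in every contrast with the control, but no direction was shared. A member counts as changed at a Benjamini-Hochberg adjusted p-value under 0.05 over all genes tested. Each of the 34 changed in at least 2 of the 6 contrasts, and 28 rose in at least 1 and fell in at least 1. The shares of all genes that did so were not computed, so these counts do not set the members apart from other genes. VLDLR, a lipoprotein receptor induced by ATF4, and SDF2L1 only rose; CALR, HYOU1, HERPUD1 and EDEM1 only fell. TRIB3, a pseudokinase that feeds back on ATF4 and CHOP, and SHMT2, the mitochondrial serine hydroxymethyltransferase, changed in all 6 contrasts. Many genes outside the group changed too. In 22Rv1, 24 members changed with gRNA #1 where 48.5% of all tested genes did, 17 upward (25.6% of all genes) and 7 downward (22.9%). With gRNA #10 there, 20 changed (40.6%), 7 upward (20%) and 13 downward (20.6%). In DU145, 19 changed with gRNA #2 (34%), 16 upward (17.1%) and 3 downward (17.0%). With gRNA #10 there, 21 changed (40.0%), 4 upward (20.2%) and 17 downward (19.8%). In PC3, 30 changed with gRNA #2 (63.6%), 7 upward (32.1%) and 23 downward (31.5%). With gRNA #10 there, 28 changed (73.5%), 18 upward (37.9%) and 10 downward (35.6%). In all-gene terms the directions were thus near even in each contrast, whereas among the members upward calls led in 3 contrasts and downward calls in the other 3. Contrasts within a line share their control libraries.

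**Figure D1:**
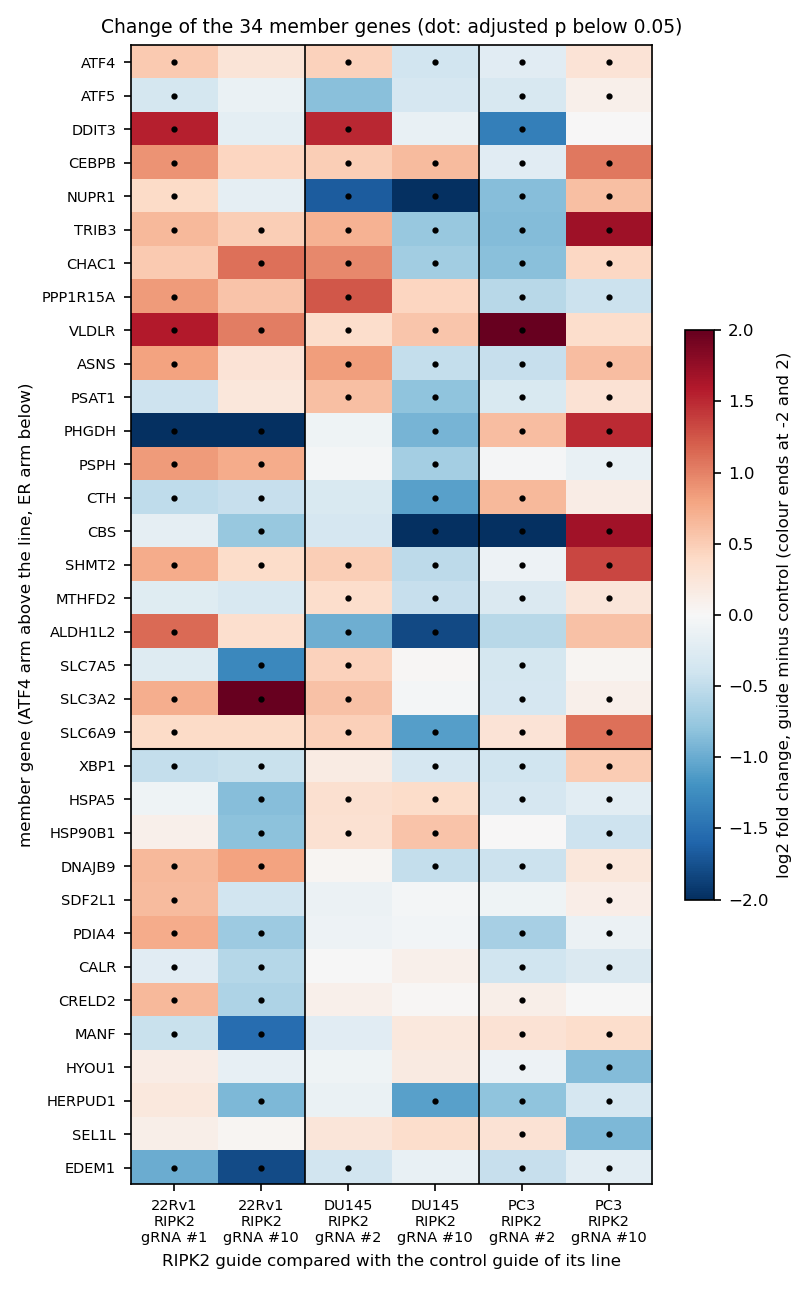
Colour gives the log2 fold change of each member (rows, ATF4 arm above the line and ER arm below) with each RIPK2 guide against the control of its line (columns, 3 libraries a group), and a dot marks an adjusted p under 0.05. The ATF4 arm is mostly red with gRNA #2 and blue with gRNA #10 in DU145, and mostly blue with gRNA #2 and red with gRNA #10 in PC3; colours end at 2 on either side, which PHGDH, CBS, NUPR1, SLC3A2 and VLDLR exceed.

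In DU145 the ATF4 arm stood on opposite sides of the control with the 2 guides. With RIPK2 gRNA #2, 14 of its 21 genes rose and 2 fell, with a median log2 fold change of 0.46; with the libraries labelled gRNA #10, 2 rose and 14 fell, with a median of -0.52. The medians over all tested genes were 0.01 and 0.00. Of all genes, 17.1% rose and 17.0% fell with gRNA #2, and 20.2% rose and 19.8% fell with gRNA #10. ATF4 itself read 697, 702 and 812 CPM with gRNA #2, 545, 513 and 547 in the controls and 417, 390 and 420 with gRNA #10, so the 3 groups did not overlap. It rose by 0.46 ± 0.09 (SE) on the log2 scale with gRNA #2 (adjusted p = 0.00272) and fell by 0.39 ± 0.09 with gRNA #10 (adjusted p = 0.00524). DDIT3 read 29.9, 40.3 and 35.7 CPM with gRNA #2 against 13.0, 12.0 and 12.2 in the controls, a 2.85-fold rise (adjusted p = 1.73e-05), while with gRNA #10 it read 11.6, 11.5 and 10.5 and did not pass the test (log2 fold change -0.15).

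Several known ATF4 targets lay on the same sides in DU145. TRIB3 read 178, 171 and 168 CPM with gRNA #2, 107, 99.1 and 114 in the controls and 61.8, 65.5 and 62.4 with gRNA #10, without overlap. CHAC1, which breaks down glutathione, read 40.5, 49.7 and 66.8 CPM with gRNA #2 against 30.4, 24.3 and 26.3 in the controls, and 13.4, 19.0 and 17.4 with gRNA #10. PPP1R15A (GADD34), which lets translation resume, read 87.5, 94.7 and 202 CPM with gRNA #2 against 54.9, 51.6 and 56.3. The 202 came from the library that stood apart, and without that library the log2 fold change was 0.75 rather than 1.24, still called. With gRNA #10 it stood above the controls as well, at 74.1, 72.2 and 72.5 CPM, which did not pass the test; without the same gRNA #2 library it did (log2 fold change 0.42, adjusted p = 5.96e-05). ASNS rose 1.79-fold with gRNA #2 and fell 1.39-fold with gRNA #10, and PSAT1, the second enzyme of serine synthesis, rose 1.52-fold and fell 1.75-fold. SHMT2 rose 1.41-fold and fell 1.43-fold. ATF5 did not follow that order. It read 6.95, 5.36 and 16.15 CPM with gRNA #2 against 18.6, 16.5 and 15.3 in the controls, and was called with neither guide. Without the gRNA #2 library that stood apart, which read 16.15, its log2 fold change with gRNA #2 was -1.45 (edgeR, adjusted p = 1.77e-06). It was then also lower than with gRNA #10 (-1.10, edgeR, adjusted p = 1.98e-05).

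With gRNA #10 in DU145 all 6 genes of amino acid synthesis and all 3 mitochondrial one-carbon genes fell, where 19.8% of all genes did. CBS read 2.77, 6.99 and 6.21 CPM against 22.6, 24.3 and 23.0 in the controls, a 4.37-fold fall (adjusted p = 0.000154). ALDH1L2, the mitochondrial formyltetrahydrofolate dehydrogenase, read 8.81, 7.19 and 7.61 CPM against 29.3, 27.1 and 26.4, a 3.50-fold fall. NUPR1 read 1.16, 0.649 and 0.901 CPM against 7.44, 6.90 and 7.56, an 8.05-fold fall, and it fell with gRNA #2 too, to 3.57, 2.73 and 0.498. ALDH1L2 likewise fell with gRNA #2, to 14.4, 20.4 and 6.91 CPM. SLC6A9, the glycine transporter GLYT1, fell 2.15-fold. Rises with gRNA #10 were CEBPB, which encodes a partner of ATF4 (111, 159 and 147 CPM against 83.8, 85.1 and 98.7), VLDLR (79.5, 72.1 and 73.1 against 51.4, 48.9 and 52.3) and the chaperones HSP90B1 (943, 808 and 866 against 610, 585 and 578) and HSPA5. CBS shares sequence with the near-identical copy CBSL, listed at up to 42 counts here, and PSPH with PSPHP1, listed at up to 208, so reads could be split between copies.

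In the ER arm in DU145, 2 of 13 genes rose and 1 fell with gRNA #2, where 34% of all genes changed, and 2 rose and 3 fell with gRNA #10, where 40.0% did, with medians of -0.00 and 0.02. HSPA5 was higher with both guides, at 935, 968 and 1133 CPM with gRNA #2 and 1131, 956 and 1050 with gRNA #10 against 827, 780 and 826 in the controls. HERPUD1, which recruits the degradation complex and whose promoter carries both kinds of element, read 46.4, 43.5 and 43.1 CPM with gRNA #10 against 94.1, 93.3 and 94.7, a 2.12-fold fall, and did not pass the test with gRNA #2 (log2 fold change -0.14). XBP1 fell by 0.34 on the log2 scale with gRNA #10 (adjusted p = 0.00311) and did not pass the test with gRNA #2 (0.17). EDEM1, which takes misfolded glycoproteins out of folding, fell 1.31-fold with gRNA #2, and HSP90B1 rose 1.24-fold.

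Several DU145 calls turned on single libraries. Without control replicate 1, 12 rather than 19 members changed with gRNA #2; without gRNA #2 replicate 3, 23 did, with 14 of the ATF4 arm higher and 3 lower. With gRNA #2, HSPA5, HSP90B1, MTHFD2, ALDH1L2 and EDEM1 lost their calls without any 1 control library, ALDH1L2 and EDEM1 also without gRNA #2 replicate 1, HSPA5 without gRNA #10 replicate 3, and EDEM1 without any gRNA #10 library. CEBPB lost its call there without control replicate 1 or 2 or gRNA #2 replicate 1, and SLC6A9 without control replicate 1. The highest adjusted p among these was 0.126, for HSPA5. XBP1 was called with gRNA #2 without its replicate 3 (adjusted p = 0.0318). With gRNA #10, CHAC1 lost its call without control replicate 1 or gRNA #10 replicate 1 (up to 0.061), and HSPA5 without control replicate 1 or 2 or gRNA #10 replicate 1 or 3 (up to 0.0714).

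In PC3 the ATF4 arm again lay on opposite sides of the control, with the guides in the other order. With RIPK2 gRNA #2, 4 of its 21 genes rose and 15 fell, with a median log2 fold change of -0.32; with gRNA #10, 14 rose and 2 fell, with a median of 0.35. The all-gene medians were 0.01 and 0.01, and 63.6% and 73.5% of all genes changed, about evenly upward and downward. ATF4 read 164, 167 and 173 CPM with gRNA #2, 208, 187 and 196 in the controls and 240, 229 and 242 with gRNA #10, again without overlap. It fell by 0.23 ± 0.04 (SE) on the log2 scale with gRNA #2 (adjusted p = 1.08e-05) and rose by 0.27 ± 0.04 with gRNA #10 (adjusted p = 5.14e-07). DDIT3 read 13.2, 12.9 and 16.2 CPM with gRNA #2 against 39.7, 34.4 and 35.4 in the controls, a 2.59-fold fall (adjusted p = 1.74e-14). With gRNA #10 it read 38.3, 34.8 and 37.3, which overlap the controls, and the log2 difference of 0.012 changed sign without control replicate 2 (-0.032), control replicate 3 (-0.011) or gRNA #10 replicate 1 (-0.018).

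TRIB3 lay far on opposite sides in PC3. It read 32.4, 31.2 and 33.4 CPM with gRNA #2, 60.0, 56.3 and 60.3 in the controls and 193, 182 and 200 with gRNA #10, a 1.82-fold fall and a 3.25-fold rise (adjusted p = 9.78e-25). CHAC1 fell 1.78-fold and rose 1.33-fold, ASNS fell 1.37-fold and rose 1.54-fold, and NUPR1, at 35.4, 31.3 and 36.7 CPM with gRNA #2 against 63.9, 58.1 and 65.6, fell 1.81-fold and rose 1.52-fold. CBS read 0.345, 0.394 and 0.198 CPM with gRNA #2 (7, 8 and 4 counts), 2.25, 2.29 and 2.43 in the controls and 4.45, 8.62 and 9.32 with gRNA #10. The fall was 7.31-fold and the rise 3.21-fold, and CBSL was listed at up to 9 counts. SHMT2 read 511, 477 and 527 CPM with gRNA #10 against 200, 203 and 200 in the controls, a 2.51-fold rise. With gRNA #2, at 187, 186 and 189 CPM, it fell by 0.10 on the log2 scale.

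Some members of the ATF4 arm in PC3 did not follow that split. PHGDH rose with both guides, from 74.3, 71.3 and 78.3 CPM in the controls to 116, 111 and 115 with gRNA #2 and 216, 195 and 216 with gRNA #10. CTH, which makes cysteine from cystathionine, read 12.5, 10.6 and 11.8 CPM with gRNA #2 against 7.19, 7.81 and 7.25 in the controls, a 1.57-fold rise, and did not pass the test with gRNA #10. PPP1R15A fell with both, to 55.4, 55.5 and 54.8 CPM and to 62.8, 55.8 and 63.4 from 82.7, 79.6 and 82.0, and SLC6A9 rose with both. VLDLR had 0, 2 and 4 counts in the control libraries, 31, 29 and 29 with gRNA #2 and 3, 4 and 1 with gRNA #10. It was called with gRNA #2; at such counts no fold is given.

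**Figure D2:**
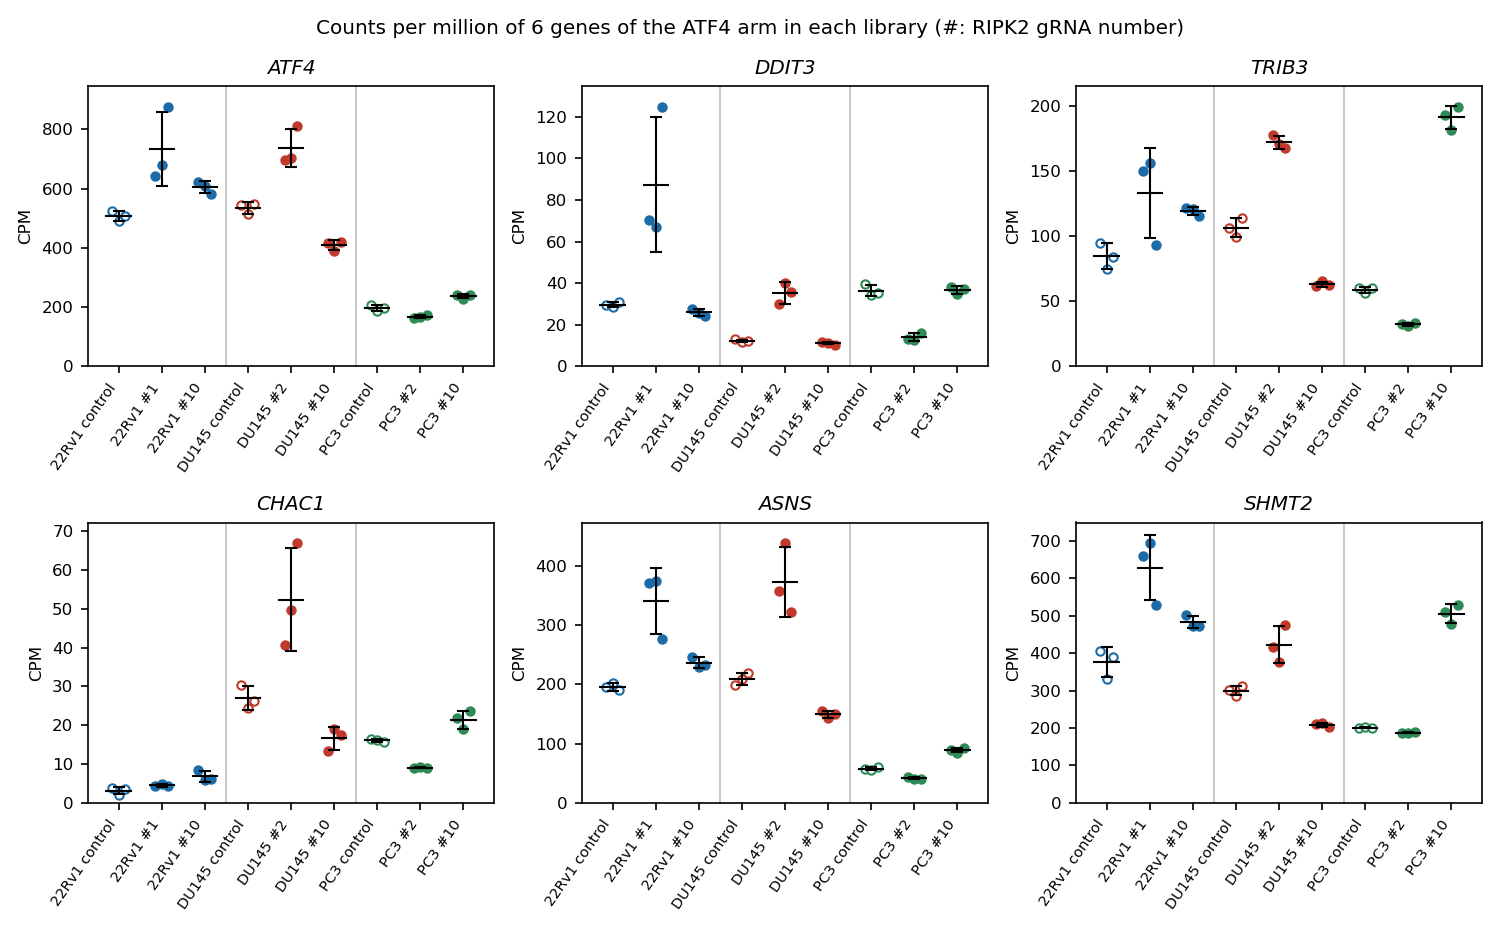
Each panel plots 1 gene of the ATF4 arm in CPM (vertical axis) in every library of the 9 groups (horizontal axis): open points are controls, filled points RIPK2 guides, and bars the mean ± SD of 3 libraries. In DU145 (red) gRNA #2 lies above and gRNA #10 at or below the control for each gene, and in PC3 (green) gRNA #2 lies below and gRNA #10 at or above it.

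In the ER arm in PC3 more calls were falls than rises with both guides. With gRNA #2, 3 of its 13 genes rose and 8 fell, where 32.1% of all genes rose and 31.5% fell. With gRNA #10, 4 rose and 8 fell, where 37.9% of all genes rose and 35.6% fell. The median log2 fold changes were -0.33 and -0.21, where those of all genes were 0.01 and 0.01. HSPA5 read 678, 673 and 717 CPM with gRNA #2 and 736, 745 and 770 with gRNA #10, both below the 897, 851 and 857 of the controls. CALR, HERPUD1 and EDEM1 also fell with both guides, and PDIA4, a disulphide isomerase, fell 1.59-fold with gRNA #2 (192, 187 and 204 CPM against 309, 305 and 312) and 1.09-fold with gRNA #10. MANF, a secreted protein held by BiP in the ER, rose with both, from 94.4, 88.7 and 87.5 CPM to 107, 106 and 117 and to 118, 114 and 114. HYOU1, the chaperone GRP170, read 231, 235 and 237 CPM with gRNA #10 against 422, 425 and 438, a 1.83-fold fall, and fell by 0.10 on the log2 scale with gRNA #2. SEL1L, the scaffold of the HRD1 degradation complex, parted by guide and read 126, 135 and 129 CPM with gRNA #10, 224, 253 and 248 in the controls and 298, 296 and 288 with gRNA #2. XBP1 was on the side of ATF4, falling by 0.39 on the log2 scale with gRNA #2 and rising by 0.52 with gRNA #10.

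PC3 libraries varied least, so small changes passed there: with gRNA #2 SHMT2, HYOU1 and CRELD2, and with gRNA #10 ATF5, PSPH, SDF2L1 and SLC3A2, were called with log2 changes under 0.15 in size and lost the call without 1 of at least 2 of their libraries (highest adjusted p 0.131). For SHMT2 these were control replicate 2 and gRNA #2 replicate 2, for HYOU1 control replicate 3 and gRNA #2 replicate 1, for CRELD2 any control or gRNA #2 replicate 1 or 2. For ATF5 they were any control or gRNA #10 replicate 3, and for PSPH control replicate 1 or gRNA #10 replicate 2. For SDF2L1 they were control replicate 1 or 2 or gRNA #10 replicate 1 or 3, and for SLC3A2 control replicate 2 or 3 or gRNA #10 replicate 1 or 3. The other-cell markers summed to 3.55 to 3.83 CPM in PC3 controls, 10.3 to 11 with gRNA #2 and 7.20 to 8.71 with gRNA #10, mostly PECAM1. Their part in the results was not tested.

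In 22Rv1 the ATF4 arm was mostly higher with gRNA #1. There 13 of its 21 genes rose and 3 fell, with a median log2 fold change of 0.53 where that of all genes was 0.02. With gRNA #10, 6 rose and 4 fell, with a median of 0.27. ATF4 read 644, 679 and 876 CPM with gRNA #1 against 526, 489 and 507 in the controls and rose by 0.53 ± 0.11 (SE) on the log2 scale (adjusted p = 0.00316). With gRNA #10 it read 622, 610 and 583, above every control, but did not pass the test (log2 fold change 0.25, adjusted p = 0.0967); without gRNA #1 replicate 3, whose spread enters the shared error, it did (adjusted p = 0.00151). DDIT3 read 70.6, 66.9 and 125 CPM with gRNA #1 against 29.6, 28.6 and 31.1, a 2.94-fold rise, and 27.7, 25.9 and 24.4 with gRNA #10, which did not pass the test. The 125 came from the library with the high mitochondrial share. Without it the log2 fold change of DDIT3 was 1.20 in place of 1.55 and that of ATF4 0.37 in place of 0.53, both still called. PPP1R15A, at 34.3, 32.8 and 64.8 CPM against 23.8, 25.3 and 24.3, had a log2 fold change of 0.84 with gRNA #1 and of 0.45 without that library.

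VLDLR rose with both guides in 22Rv1, from 3.68, 3.87 and 3.43 CPM to 10.5, 9.73 and 12.9 with gRNA #1 and to 7.80, 6.66 and 7.98 with gRNA #10. ALDH1L2 read 162, 156 and 107 CPM with gRNA #1 against 61.7, 74.1 and 58.9, a 2.18-fold rise. CHAC1 read 8.52, 5.94 and 6.08 CPM with gRNA #10 against 3.79, 2.15 and 3.59, a 2.15-fold rise, and did not pass the test with gRNA #1. ASNS, CEBPB, PPP1R15A and SHMT2 rose with gRNA #1 by 1.74-fold, 1.87-fold, 1.80-fold and 1.67-fold. PSPH, the last enzyme of serine synthesis, rose with both guides (1.81-fold and 1.68-fold), while CTH fell with both, from 9.65, 11.9 and 9.32 CPM to 7.93, 7.94 and 5.89 and to 7.80, 7.43 and 7.31.

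SLC3A2 and PHGDH had the largest changes of the arm with gRNA #10 in 22Rv1. SLC3A2 encodes the heavy chain of the amino acid exchangers, and SLC7A5 its light chain for large neutral amino acids. SLC3A2 (chr11:62856102-62888875, plus strand, GENCODE 29 on GRCh38) read 119, 95 and 120 CPM in the controls, 157, 168 and 228 with gRNA #1 and 1289, 1184 and 1224 with gRNA #10, an 11.1-fold rise in the last (adjusted p = 7.29e-08). SLC7A5 went the other way with gRNA #10, at 125, 124 and 121 CPM against 330, 259 and 321, a 2.45-fold fall. In DU145 both genes rose with gRNA #2 and in PC3 both fell with it. PHGDH (chr1:119648411-119744226, plus strand) read 1040, 860 and 1058 CPM in the controls, 235, 237 and 163 with gRNA #1 and 128, 118 and 118 with gRNA #10. These were falls of 4.66-fold and 8.14-fold (adjusted p = 1.10e-06 and 1.51e-07), in the line where the control level was highest.

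The ER arm in 22Rv1 fell with gRNA #10 and was mixed with gRNA #1. With gRNA #10, 9 of its 13 genes fell and 1 rose. The median log2 fold change was -0.61, where that of all genes was -0.00. With gRNA #1, 4 rose and 4 fell. Of all genes, 40.6% changed with gRNA #10 and 48.5% with gRNA #1. HSPA5 read 826, 796 and 807 CPM with gRNA #10 against 1424, 1510 and 1433 in the controls, a 1.80-fold fall (adjusted p = 1.49e-05), and 1396, 1440 and 1277 with gRNA #1, which did not pass the test (log2 fold change -0.09). HSP90B1 had the same shape, with 1199, 1197 and 1225 CPM with gRNA #10 against 1953, 2420 and 2002. MANF read 118, 119 and 118 CPM with gRNA #10, 230, 252 and 267 with gRNA #1 and 341, 333 and 346 in the controls, a fall with both guides. EDEM1 did so too, at 33.0, 36.4 and 36.8 CPM with gRNA #10 and 67.4, 65.6 and 51.3 with gRNA #1 against 125, 128 and 113. PDIA4 parted, with 750, 756 and 724 CPM with gRNA #1 and 274, 270 and 266 with gRNA #10 around controls of 464, 415 and 456, and so did CRELD2. XBP1 fell by 0.47 and 0.44 on the log2 scale, and DNAJB9, a BiP cochaperone that XBP1 controls, rose 1.57-fold and 1.75-fold.

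**Figure D3:**
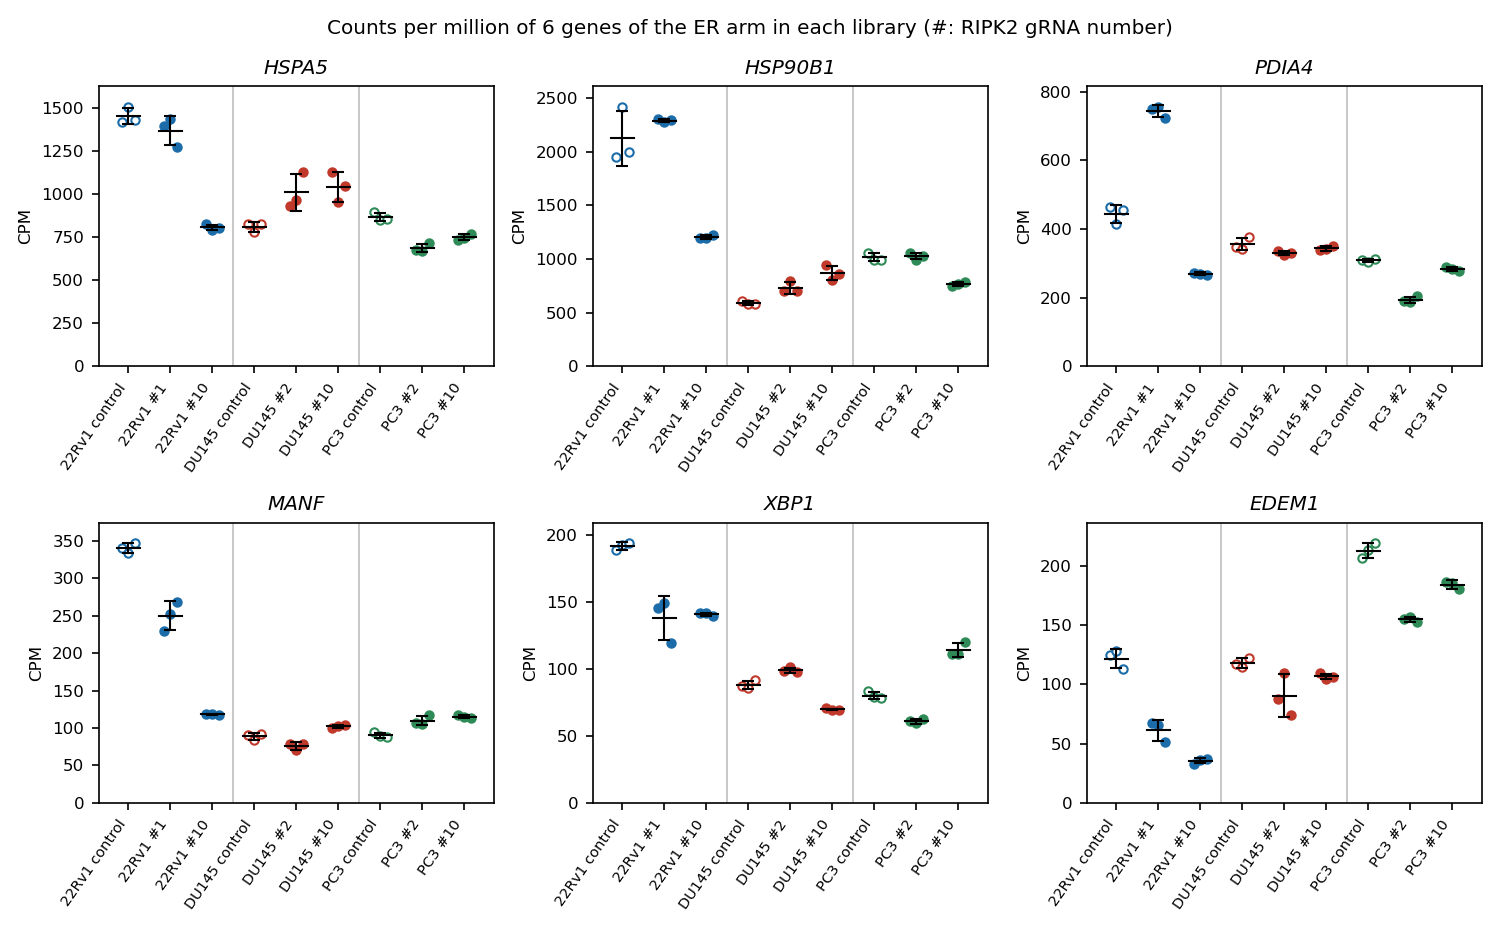
Each panel plots 1 gene of the ER arm in CPM (vertical axis) in every library of the 9 groups (horizontal axis), marked as in the plot of the ATF4 arm, with bars for the mean ± SD of 3 libraries. In 22Rv1 (blue) gRNA #10 lies below the control for all 6 genes shown, in DU145 HSPA5 and HSP90B1 lie above it with both guides, and in PC3 HSPA5, PDIA4 and EDEM1 lie below it with both.

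Without gRNA #1 replicate 3, 29 members changed in 22Rv1 with either guide, in place of 24 and 20. The share of all genes changed rose as well. It went from 48.5% to 54.6% with gRNA #1 and from 40.6% to 58.3% with gRNA #10. The ATF4 arm then had 13 rises and 5 falls with each, and the ER arm 7 rises and 4 falls with gRNA #1 and 1 rise and 10 falls with gRNA #10. With gRNA #1, the call of TRIB3 was lost without control replicate 2 (adjusted p = 0.0532), that of CTH likewise (0.0723), that of NUPR1 without control replicate 1 or 2 (up to 0.0931), and that of ATF5 when the gRNA #10 libraries were left out of the fit (0.0536). CALR lost its call there without any library but control replicate 2 and gRNA #1 replicate 3 (up to 0.132), and SLC6A9 without any but control replicate 3 and gRNA #1 replicate 3 (up to 0.146). CALR and SLC6A9 also lost it without the filter on low counts (0.0735 and 0.0909) and in a fit of only the groups compared (0.132 and 0.0933). With gRNA #10, TRIB3 lost its call without any 1 control or gRNA #10 library (up to 0.149). CTH did so without control replicate 1 or 2 or any gRNA #10 library (up to 0.121), and SHMT2 without control replicate 2 or 3 or any gRNA #10 library (up to 0.1).

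The difference between guides was tested directly within each line, without the controls as a reference point. In DU145, 17 of the 21 genes of the ATF4 arm were higher with gRNA #2 than with gRNA #10, where 38.8% of all genes differed (19.2% higher, 19.6% lower), and the other 4 did not pass the test. In PC3, 2 were higher and 18 lower with gRNA #2, where 73.4% of all genes differed (36.5% higher, 36.9% lower). The median log2 difference was 0.84 in DU145 and -0.83 in PC3. In 22Rv1, 9 were higher and 2 lower with gRNA #1 than with gRNA #10, with a median of 0.28, where 35.6% of all genes differed (18.8% higher, 16.8% lower). TRIB3 differed by 1.45 ± 0.08 (SE) in DU145 and by -2.57 ± 0.05 in PC3, and CBS by 1.79 ± 0.27 and -4.55 ± 0.44. ATF4 differed by 0.85 ± 0.09 and -0.49 ± 0.04. DDIT3 was higher with the first guide in 22Rv1 (1.75 ± 0.21) and DU145 (1.66 ± 0.12) and lower in PC3 (-1.39 ± 0.08).

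The guides were compared in the same way for the ER arm. In 22Rv1, 10 of its 13 genes were higher with gRNA #1 than with gRNA #10 and the other 3 did not pass the test, with a median log2 difference of 0.80, and HSPA5, HSP90B1, PDIA4, CRELD2, MANF, SDF2L1, HERPUD1 and EDEM1 were among them. In DU145, 3 were higher and 3 lower, and in PC3, 4 were higher and 8 lower. Of all genes, 35.6% differed between the guides in 22Rv1, 38.8% in DU145 and 73.4% in PC3. Whether the guide difference is unlike between the arms was not tested. Without 22Rv1 gRNA #1 replicate 3, 11 genes of the ER arm were higher in that line, where 45.1% of all genes then differed. Without DU145 gRNA #2 replicate 3 the ATF4 arm had 18 higher and 2 lower, where 47.9% of all genes then differed.

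**Figure D4:**
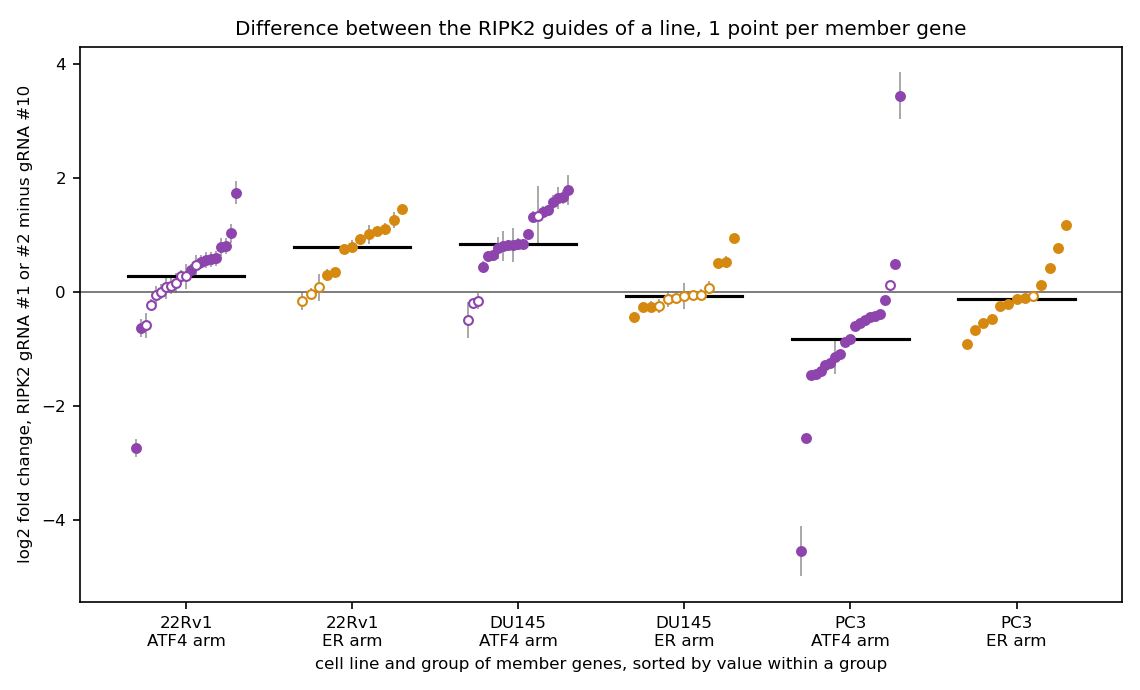
Each point is 1 member, with the log2 difference between the RIPK2 guides of a line on the vertical axis (gRNA #1 or #2 minus gRNA #10, bars are SE) and line and arm on the horizontal axis; filled points have an adjusted p under 0.05 and black bars are medians. The ATF4 arm has its median at 0.84 in DU145 and -0.83 in PC3, and the ER arm at 0.80 in 22Rv1; the highest PC3 point is VLDLR, which rests on few counts.

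Other genes of the pathway, from lists of its known parts, were read beside the members; those named in the next sentences as extremes were chosen after their values were seen. Of 12 cytosolic aminoacyl-tRNA synthetases, many of them ATF4 targets, which charge tRNAs, 11 were higher with gRNA #2 than with gRNA #10 in DU145, and TARS1 did not pass the test. In PC3, 1 was higher and 10 were lower. AARS1, for alanine, had the largest difference in DU145, at 1.24 on the log2 scale, and MARS1, for methionine, in PC3, at -1.41. Of 23 further ATF4 targets, 22 were tested, FGF21 being too low. In DU145, 17 were higher and 1 lower, and in PC3, 2 were higher and 20 lower. Of all genes, 19.2% were higher and 19.6% lower in DU145, and 36.5% higher and 36.9% lower in PC3. In 22Rv1, 3 synthetases were higher with gRNA #1 and 1 lower, and 6 further targets were higher and 2 lower. There 35.6% of all genes differed (18.8% higher, 16.8% lower), a share near that of these lists.

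The sensors gave no such order. Of 16 sensors, kinases and subunits of the translation factors eIF2 and eIF2B, 4 were higher and 6 lower with gRNA #2 than with gRNA #10 in DU145. In PC3, 8 were higher and 4 lower, and in 22Rv1 1 was higher with gRNA #1 and 1 lower. Of all genes, 38.8% differed in DU145, 73.4% in PC3 and 35.6% in 22Rv1. The sensor count in PC3 was near that share. The message of EIF2AK3, which encodes PERK, had the largest fall among the called sensors with gRNA #2 in PC3, at -0.70 on the log2 scale. It fell with gRNA #10 too, at -0.60, and the difference between guides did not pass the test. ERN1, which encodes IRE1, also fell with both, at -0.59 with gRNA #2 and -1.10 with gRNA #10. Of 28 further ER folding and degradation genes, 13 were higher and 2 lower with gRNA #1 than with gRNA #10 in 22Rv1. Between the guides in DU145, 3 were higher and 6 lower with gRNA #2 than with gRNA #10. In PC3, where 27 were tested, 10 were higher and 12 lower. Against the control in DU145, 16 rose and 2 fell with gRNA #10, where 40.0% of all genes changed and 20.2% rose. With gRNA #2 there, 7 rose and 1 fell, where 34% of all genes changed and 17.1% rose. ERO1B, an ER oxidase, had the largest fall of that list with both guides in 22Rv1, with log2 fold changes of -1.30 and -3.12.

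The 3 lines were finally compared in 1 model of all 27 libraries, on the mean of both guides minus the control. For 28 of the 34 members the effect differed between lines (edgeR F test, adjusted p under 0.05), where 66.5% of all 16322 genes did. The 6 that did not pass were ATF5, CEBPB, PSAT1, MTHFD2, SDF2L1 and CRELD2. HSPA5 averaged -0.46 in 22Rv1, 0.35 in DU145 and -0.29 in PC3, and HSP90B1 -0.35, 0.44 and -0.21. A mean over guides that part can be near 0: that of ATF4 was 0.04 in DU145 and 0.00 in PC3, and that of ASNS 0.18 and 0.07, though each guide changed both genes in both lines.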

How the data were processed

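Per the submitters' processing notes, reads were checked with FastQC, aligned with STAR to hg38 and analysed with edgeR. Per the labels' protocols, strand-specific mRNA libraries were sequenced in pairs of 150 bases. The counting tool, the annotation and the strand setting are not given in the sources used here. The authors deposited raw counts per gene symbol, in 1 table for each line, with no normalization.

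Each table of 9 libraries was filtered (edgeR filterByExpr, minimum count 10, minimum total 15), scaled by TMM and fitted by group with the edgeR quasi-likelihood test (edgeR 4.0.16, limma 3.58.1, R 4.3.3). P-values were adjusted by Benjamini-Hochberg over the genes tested (22Rv1 15198, DU145 14908, PC3 14718), and an adjusted p under 0.05 is a call. A model of all 27 libraries tested the difference between lines. CPM here are counts relative to the TMM-scaled library size. On data simulated from these counts, 200 genes were changed in 1 guide group of a line. Of these, 1.5-fold changes were recovered for 24.5% with gRNA #1 in 22Rv1, 31.5% with gRNA #2 in DU145 and 83% with gRNA #2 in PC3. For 2-fold changes the shares were 72.5%, 80% and 90.5%. In the real guide contrasts 34.0% to 73.5% of genes were called, which makes the Benjamini-Hochberg cutoff looser than in the simulation. The recovered shares therefore do not carry over to those contrasts. Reads carry no molecular identifiers, so floors of 3 counts cover counting error only.

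The members and all lists were chosen with earlier results of these data known. Named in each contrast were ATF4, DDIT3, HSPA5 and XBP1, with the 3 largest rises and 3 largest falls among called members with a mean of at least 100 counts in either group and no overlap between guide and control libraries; other members serve as examples. Alternatives were RLE scaling, no filter, DESeq2 1.42.0, the replicate number as a block, a fit of only the groups compared, and leaving out each library in turn. Leaving out both libraries that stood apart was added after seeing the data. Neighbouring genes were placed with GENCODE 29.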

Additional observations from a re-analysis of the deposited data

Results flagged for a closer look

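The effect of RIPK2 guides, as the mean of both guides minus the control on the log2 scale, differed between the 3 lines for 28 members in the model of all libraries (edgeR F test, adjusted p under 0.05 over 16322 genes, of which 66.5% differed). The size given here is the highest line's effect minus the lowest line's. Among regulators it was 0.39 for ATF4, 1.38 for DDIT3, 2.43 for NUPR1 and 0.50 for XBP1. NUPR1 averaged -2.33 in DU145, 0.11 in 22Rv1 and -0.14 in PC3. Among stress effectors it was 0.60 for TRIB3, 1.04 for CHAC1, 1.34 for PPP1R15A and 1.60 for VLDLR, whose PC3 value rests on few counts. Among enzymes of amino acid synthesis it was 0.47 for ASNS, 3.66 for PHGDH, 1.16 for PSPH, 1.07 for CTH and 0.76 for CBS. PHGDH averaged -2.62 in 22Rv1, -0.50 in DU145 and 1.03 in PC3. The line with the highest control level fell and the line with the lowest rose. Level and effect share the control libraries, and a relation between them was not tested. Among one-carbon enzymes and transporters it was 0.61 for SHMT2, 2.13 for ALDH1L2, 1.03 for SLC7A5, 2.23 for SLC3A2 and 0.99 for SLC6A9. Among chaperones it was 0.81 for HSPA5, 0.79 for HSP90B1, 0.95 for DNAJB9, 0.42 for PDIA4, 0.44 for CALR, 1.29 for MANF and 0.55 for HYOU1. Among degradation factors it was 0.26 for HERPUD1, 0.62 for SEL1L and 1.12 for EDEM1. A small difference for genes such as ATF4 and TRIB3 stands beside guides that lay on opposite sides of the control within a line.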

How the results depend on the processing

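Of 148 member values followed, 142 were called; 117 of these kept direction and call under every alternative run, and 25 lost the call under at least 1. Beside the libraries and settings named with the values, calls were lost in a fit of only the groups compared by CTH and NUPR1 with gRNA #1 in 22Rv1 and by ALDH1L2, EDEM1, HSP90B1, HSPA5 and MTHFD2 with gRNA #2 in DU145 (adjusted p 0.0522 to 0.0864). They were lost without the filter by NUPR1 with gRNA #1 and SHMT2 with gRNA #10 in 22Rv1 (0.0501 and 0.0507). In PC3, ATF5 and SDF2L1 with gRNA #10 and CRELD2 with gRNA #2 lost theirs without the filter (0.0613 to 0.0824) and with DESeq2 (0.0662 to 0.102). The block ended the calls of CALR and SLC6A9 with gRNA #1 in 22Rv1 (0.0725 and 0.0548) and of no other value followed. DDIT3 with gRNA #10 in PC3 (0.012, not called) ranged from -0.032 to 0.075 when 1 library was left out, with the sign changed without control replicate 2 (-0.032), control replicate 3 (-0.011) and gRNA #10 replicate 1 (-0.018). Leaving out each library in turn gave 21 to 29 changed members with gRNA #1 and 17 to 29 with gRNA #10 in 22Rv1 (18 to 26 between guides). It gave 12 to 23 with gRNA #2 and 19 to 26 with gRNA #10 in DU145 (19 to 26), 28 to 30 and 25 to 28 in PC3 (31 to 33), and 25 to 29 for the difference between lines. The 12 came without DU145 control replicate 1 (11 higher, 1 lower). The highest counts in 22Rv1 and DU145 came without the libraries that stood apart, where more of all genes were called as well. The other alternatives gave 19 to 25, 19 to 29 and 19 to 21 in 22Rv1, 14 to 22, 21 to 27 and 19 to 25 in DU145, 29 to 30, 26 to 28 and 31 to 32 in PC3, and 27 to 29 between lines. Without both libraries that stood apart, 29 members differed between lines. Deviations of libraries with the same replicate number correlated at -0.0806 to 0.339 in 22Rv1, -0.189 to 0.0725 in DU145 and -0.0494 to 0.0615 in PC3. The 0.339 was between control replicate 3 and gRNA #1 replicate 3. The replicate numbers come from the titles, and some library names carry other numbers. A pairing of libraries can therefore be excluded neither by these values nor by the block. With the replicate block the counts were 23, 22 and 20 in 22Rv1, 19, 21 and 20 in DU145, 30, 28 and 32 in PC3 and 28 between lines. Depth limits VLDLR, CBS and ALDH1L2 in PC3 and NUPR1 in DU145.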

Other observations

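The genes next to SLC3A2 and PHGDH were read in 22Rv1 after the size of those changes had been seen, so the values are a description. The 5 nearest tested genes on each side of SLC3A2 reach 68.7 kb one way and 903.8 kb the other. Of these, 3 rose and 1 fell with gRNA #10. Of all genes, 40.6% changed with that guide, a share near that of these neighbours. SNHG1, a host gene of small nucleolar RNAs, averaged 76.4 CPM in the controls, 99.4 with gRNA #1 and 490 with gRNA #10. On the log2 scale that was 0.38 (edgeR, adjusted p = 0.263) and 2.68 (edgeR, adjusted p = 2.96e-05). CHRM1, a muscarinic receptor, averaged 1.95 CPM in the controls, 1.00 with gRNA #1 and 8.99 with gRNA #10. ATL3, an ER-shaping GTPase, fell from 195 to 74.1 CPM with gRNA #10.

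Of the 5 nearest tested genes on each side of PHGDH, 2 rose and 6 fell with gRNA #1. With gRNA #10, 2 rose and 5 fell. Of all genes, 48.5% changed with gRNA #1 and 40.6% with gRNA #10. ZNF697 averaged 51.1 CPM in the controls, 3.30 with gRNA #1 and 6.86 with gRNA #10. NOTCH2, a receptor of cell fate signalling, averaged 82.8, 22.9 and 38.3 CPM.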
